A study of Mus musculus with 6 samples.

Results

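The stretch of mouse chromosome 8 from 70 to 97 Mb lies on the side before Prss54, a testis serine protease gene whose array probe starts at position 98082993 (mm9 build). All array probes for genes whose smaller coordinate fell in this stretch were taken as members, whatever their values. This gave 549 of the 41174 gene probes on the array, carrying 369 gene names, and each of the 549 had a sequence of its own. Of these, 425 probes (291 gene names) cleared background well on 3 or more of the 6 arrays and were tested. The other 124 were left out of the tests, 100 of them because they were above background on no array. The tested members lay 1.16 to 28.1 Mb before the Prss54 probe.

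Testis RNA came from 6 male mice aged 6 to 8 weeks, all of a mixed 129Sv/C57BL/6 background: 3 wild type (WT) and 3 carrying the Prss54 knockout (Prss54KO), with 1 single-colour array per mouse. The labels give neither the part of Prss54 that was disrupted nor the mice's litters, so p-values reflect only the variation among these few animals. By the file headers the arrays stood on 3 slides. Slide 2 (numbered here) carried both genotypes: WT replicate 3 together with the first 2 Prss54KO mice, replicates 1 and 2. Slide 3 carried WT replicates 1 and 2, and slide 1 carried Prss54KO replicate 3. In bulk tissue, fewer cells of a type and less RNA per cell cannot be told apart.

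As background, a mixed 129Sv/C57BL/6 mouse can carry chromosome stretches of either parental strain. An array probe reads a short piece of a transcript, so its signal depends on how much transcript is present and on how well the probe's bases match it. The stretch holds unrelated gene families, among them Kruppel-type zinc finger genes, carboxylesterase genes that hydrolyse esters and drugs, and metallothionein genes whose small proteins bind zinc and copper. The strain of origin of the stretch in each mouse was not analysed here.

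The sequences below are the array's own probes for the members that carry the results, printed 5′ to 3′ in lower case with no base singled out. The first 4 read genes whose level split the arrays by slide, the next 4 read genes for which WT replicate 3 stood alone, and the last 2 had the smallest p between genotypes. Positions are mm9 with the strand given by the files; the annotated exon or untranslated region under each probe is not given here. The Zfp423 positions span far more than 60 bases, so that probe's sequence is placed across a gap in the genome.
Yjefn3, chr8:72411694-72411753, minus strand: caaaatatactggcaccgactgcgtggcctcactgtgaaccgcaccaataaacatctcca
TC1772235, chr8:72147790-72147849, minus strand: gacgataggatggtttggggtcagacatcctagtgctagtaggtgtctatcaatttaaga
Nxnl1, chr8:74085362-74085421, minus strand: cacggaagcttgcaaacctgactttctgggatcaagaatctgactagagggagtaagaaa
Gm10033, chr8:71894983-71895042, minus strand: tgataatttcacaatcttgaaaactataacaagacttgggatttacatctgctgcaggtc
Klf1, chr8:87428881-87428940, plus strand: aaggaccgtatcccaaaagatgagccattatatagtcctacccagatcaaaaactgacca
2210011C24Rik, chr8:86534157-86534216, minus strand: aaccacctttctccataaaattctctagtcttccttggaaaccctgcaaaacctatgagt
Zfp423, chr8:90297522-90304128, minus strand: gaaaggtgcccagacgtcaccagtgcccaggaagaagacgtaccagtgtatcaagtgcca
Ptger1, chr8:86193681-86193740, plus strand: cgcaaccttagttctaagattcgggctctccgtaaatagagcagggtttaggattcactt
Gdf1, chr8:72855399-72855458, plus strand: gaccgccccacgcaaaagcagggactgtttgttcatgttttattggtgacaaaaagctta
Unc13a, chr8:74184257-74184316, minus strand: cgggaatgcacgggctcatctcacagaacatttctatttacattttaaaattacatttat

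Across the series, the levels of tested probes correlated between arrays at r of 0.994 to 0.996, and array medians of the signal were 203 to 220 in intensity units. Prss54 stood at log2 levels of 3.81, 3.93 and 3.94 in the WT mice and 2.14, 2.52 and 2.32 in the Prss54KO mice. Its difference was -1.56 (SE 0.10), with limma's adjusted p at 0.116 over all 28913 probes tested; whether the probe lies in the disrupted part was not tested. Levels are log2 processed signals from which the 75th percentile of the same array was subtracted, so 0 is the signal at that percentile. All 8 haploid germ cell markers, protamine and transition protein genes among them, were above background on every array, and the log2 of their summed signal ranged from 10.26 to 10.36. Of 5 epididymis markers, 4 were above background on no array. Among somatic lists, the fibroblast sum was 4.59 in WT replicate 3 against 3.82 to 4.31 on the other arrays, and the adipocyte sum was 1.15 there against 1.40 to 1.69. The adipocyte markers disagreed: Adipoq stood at 0.72 in that mouse against 1.28 to 1.56, whereas Cfd stood at -1.49 and was above background there only (-8.36 to -7.44 elsewhere). The part of these lists in the results was not tested.

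Between genotypes, 0 of the 425 members passed an adjusted p of 0.05 with limma (background over all probes tested 0.0%). At an unadjusted p under 0.05, 5 members were higher and 5 lower in Prss54KO, each 1.18% of the members, where all probes gave 1.76% higher and 1.46% lower. These shares do not exceed the background. The genotypes did not overlap in 28 members (6.59%), against 7.89% of all probes. By size, however, 5 members were higher in Prss54KO by 0.5 or more on the log2 scale (1.18%; all probes 0.643%) and 13 were lower by as much (3.06%; all probes 0.754%).

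Those 18 large differences did not separate the genotypes for the most part. In 16 of the 18, levels of WT and Prss54KO mice overlapped, and in 16 the SD within WT or within Prss54KO was 0.5 or more. The exceptions without overlap were Unc13a and a probe of Inpp4b. Dim probes made up 15 of the 18, with a mean level under -2, and 10 of the 18 were above background on all 6 arrays. The median size of a difference was 0.0794 over the members, against 0.0612 on chromosome 8 below 70 Mb, 0.0605 from 99 to 120 Mb and 0.0576 on the other chromosomes. Just inside and outside the ends of the stretch, Nat2 differed by -0.04 and AK045332 by 0.09 at the lower end, and Herpud1 by 0.09 and Nlrc5 by -0.15 at the upper end.

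**Figure D1:**
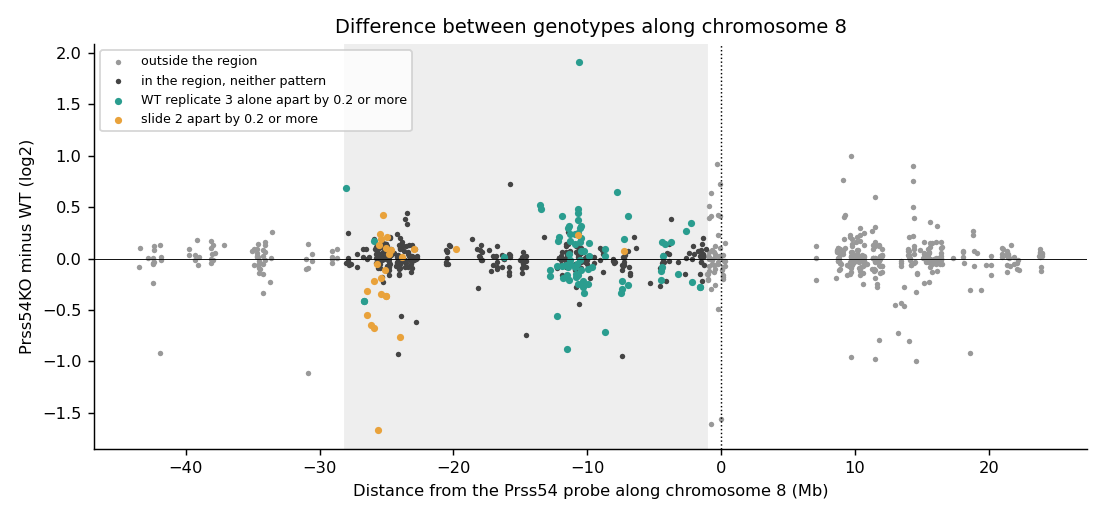
The Prss54KO minus WT log2 difference of each tested chromosome 8 probe is plotted against its distance from the Prss54 probe in Mb, with the 425 members in the grey band. The members farthest from 0 in the band, Klf1 at 1.91 and Yjefn3 at -1.67, carry the colours of WT replicate 3 alone and of slide 2 apart.

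The members with the smallest p were modest in size. Gdf1, a TGF-beta family ligand known for left-right patterning, had levels of -1.80, -1.86 and -1.86 in WT and -2.08, -2.04 and -2.07 in Prss54KO. The 3 Prss54KO mice thus lay below the 3 WT mice, by -0.23 (SE 0.05, unadjusted p 0.0034 and adjusted p 0.9998, limma). Unc13a, which encodes a priming factor for synaptic vesicles, stood at -4.57, -4.66 and -4.83 in WT and -5.50, -5.06 and -5.19 in Prss54KO. Its difference was -0.56 (SE 0.13, limma's unadjusted p 0.0048), at a dim signal that was above background on 5 of 6 arrays, and the gene's other probe was above background on none. With 3 mice against 3, an exact permutation test cannot go below a two-sided p of 0.1, the value reached by both.

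Kcnn1, a small-conductance potassium channel gene, was higher in all 3 Prss54KO mice, at -4.41, -4.48 and -4.44 against -4.63, -4.59 and -4.69, a difference of 0.20 (SE 0.05). Smaller non-overlapping differences were those of Nr3c2, the mineralocorticoid receptor gene, at 0.19 (SE 0.07), and 1 of 4 tested probes of Sugp2, a gene of the splicing machinery, at 0.15 (SE 0.06). The other 2 Nr3c2 probes were above background on no array. Cyld, a deubiquitinase gene, stood at -0.16 (SE 0.06) and at -0.14 at another probe, while at the last of its 3 tested probes (-0.08) the genotypes overlapped. None of these passed the adjusted threshold with limma. Without WT replicate 3, Gdf1 stood at -0.24 and Unc13a at -0.63, and on slide 2 alone at -0.21 and -0.45. As the genotypes did not overlap in either gene, leaving out arrays could change the size but not the sign.

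Of the large differences, 6 belonged to neither of the array patterns described next, at the 0.2 gap used there. Besides Unc13a they were Ankle1, NAP052311-1, Gm9725, TC1651162 and Sin3b. Ankle1, which encodes a DNA endonuclease, differed by -0.93 (SE 0.40), by -0.60 without WT replicate 1 and by -0.17 with normexp background correction. It stood at -4.84, -6.06 and -5.64 in WT and -6.72, -6.86 and -5.76 in Prss54KO, above background on only 3 of the 6 arrays, and the genotypes overlapped. Sin3b, a transcriptional corepressor gene, read -3.77, -3.22 and -4.76 in WT and -4.43, -4.55 and -4.61 in Prss54KO at its dim probe. The difference there was -0.61 (SE 0.37), while the brighter Sin3b probes gave 0.01 and -0.01, so the probes of this gene disagreed. Of the transcripts without a known product, NAP052311-1 differed by -0.94 (SE 0.36), Gm9725 by -0.74 (SE 0.28) and TC1651162 by 0.73 (SE 0.30). The last 2 were -0.47 and 0.42 without Prss54KO replicate 1. F830004M19Rik was above background on all 3 WT arrays but on none of the Prss54KO arrays, so it passed the filter through WT alone. It stood at -5.30, -5.06 and -4.19 in WT and -5.24, -5.47 and -5.99 in Prss54KO, and the genotypes overlapped. By its mean, Prss54KO was at least 1.58-fold lower (measured means -4.85 and -5.57). The bound was at least 1.25-fold without WT replicate 3, where the difference fell from -0.72 to -0.39. That mouse stood alone at this probe by 0.87, so F830004M19Rik is not among the 6 outside the array patterns. As the probe passed through WT alone, the bounds describe the means only and are no support for a lower level in Prss54KO.

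**Figure D2:**
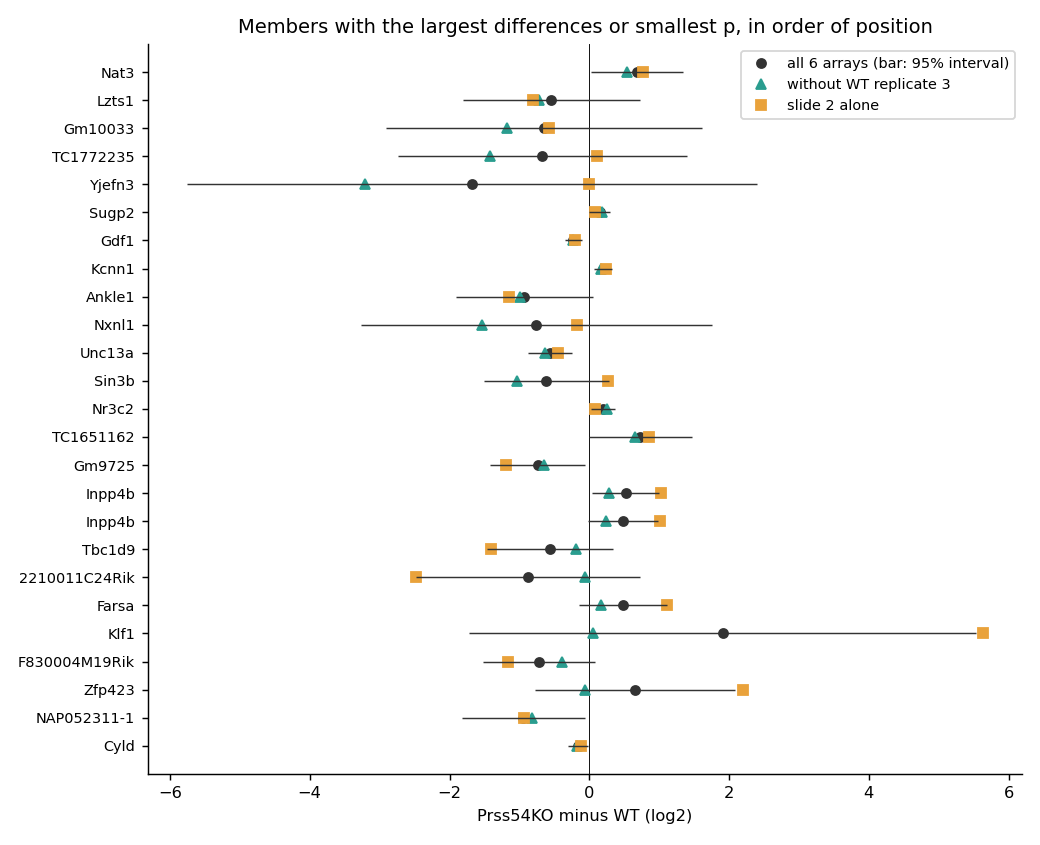
Each row is a member probe with a large difference or a small p, in order of position, and the x axis is the Prss54KO minus WT log2 difference from all 6 arrays (circle, with limma's 95% interval), without WT replicate 3 (triangle) and on slide 2 alone (square). Klf1 moved from 1.91 to 0.06 without WT replicate 3 and to 5.63 on slide 2 alone, and Yjefn3 from -1.67 to -3.21 and 0.00, while Gdf1 stayed between -0.24 and -0.21.

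Spread within the genotypes was wider in the stretch than on the rest of the array, given here as a description. The median SD over the 3 WT mice was 0.124 for the members, against 0.0917 on chromosome 8 below 70 Mb, 0.0855 from 99 to 120 Mb and 0.0891 on other chromosomes. Over the 3 Prss54KO mice the medians were closer, 0.107 against 0.0975, 0.0815 and 0.0994. A WT SD of 0.5 or more occurred in 32 members (7.53%; all probes 2.3%) and a Prss54KO SD that large in 16 (3.76%; all probes 2.48%). WT replicates 1 and 2, which shared a slide, differed from each other by a median of 0.0837 over the members and 0.0903 over all probes, so the wider WT spread was not found between these mice.

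Counted array by array, departures of 0.5 or more from the mean of the genotype's other arrays were most frequent in WT replicate 3, with 77 members (18.1%; all probes 5.13%). The counts were 21 for WT replicate 1 (4.94%; all probes 3.18%) and 34 for WT replicate 2 (8.0%; all probes 3.23%). Among Prss54KO mice they were 34 for replicate 1 (8.0%; all probes 4.92%), 20 for replicate 2 (4.71%; all probes 3.35%) and 42 for replicate 3 (9.88%; all probes 5.45%). Each mouse thus exceeded the array-wide share, and the excess was largest in WT replicate 3. In this group of 3 a departing array also shifts the mean against which the others are set.

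To locate single arrays, a gap was taken as the distance from an array to the nearest of all other 5, a measure chosen after the values were seen. By this measure WT replicate 3 stood alone by 0.5 or more in 32 members (7.53%; all probes 0.629%). The other arrays did so in 4 for WT replicate 1 (0.941%; all probes 0.54%), 2 for WT replicate 2 (0.471%; all probes 0.581%) and 5 for Prss54KO replicate 1 (1.18%; all probes 0.674%). For Prss54KO replicates 2 and 3 it was 4 each (0.941%; all probes 0.726% and 0.612%). At bright probes, with a mean level of -2 or more, WT replicate 3 stood alone in 17 of 267 members (6.37%) and in 23 of the 16929 bright probes elsewhere (0.136%). Of those 23, 2 lay on chromosome 8 outside the stretch, and no other chromosome held more than 5.

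**Figure D3:**
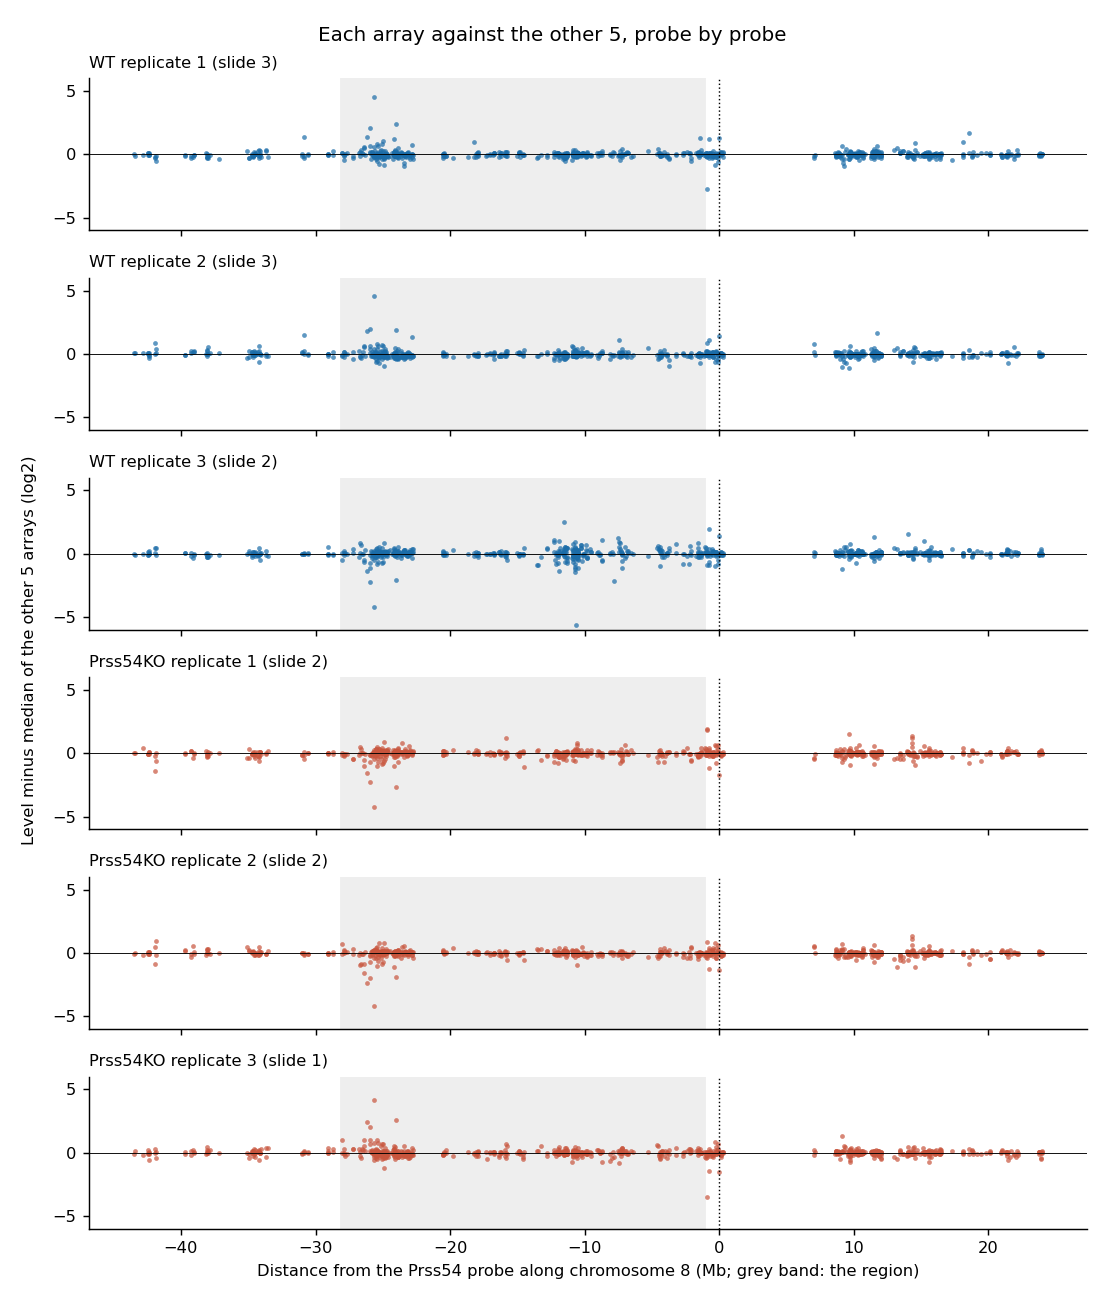
In 6 panels, 1 per mouse, each tested probe's level minus the median of the other 5 arrays (log2) is plotted against its distance from the Prss54 probe in Mb; the grey band marks the stretch and blue and red mark WT and Prss54KO. WT replicate 3 scatters on both sides of 0 in the later part of the band, where 19 of 104 members between 85 and 88 Mb stood alone by 0.5 or more, and the 3 arrays of slide 2 scatter opposite to the other 3 in its early part.

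In the early part of the stretch, some members split the arrays by slide and not by genotype. The 3 mice on slide 2, WT replicate 3 and Prss54KO replicates 1 and 2, stood apart from the other 3 by 0.5 or more in 11 members of 10 genes (2.59%; all probes 0.121%), with probe starts from 71656693 to 74085362. Most members there did not: before 76 Mb, 141 showed neither this gap nor WT replicate 3 alone at 0.2, and Gdf1 lies among them. Of the 11 members with the gap, 10 were lower and 1 higher on slide 2. Window by window, 7 of 64 tested members between 70 and 73 Mb and 4 of 104 between 73 and 76 Mb showed such a gap, and 0 in every later window. Outside the stretch 24 probes did, with at most 3 on any chromosome and 0 on the rest of chromosome 8. At bright probes it was 6 of 267 members and 0 of 16929 probes elsewhere. Slide, scan and the mice placed on the slide cannot be told apart for these members.

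Yjefn3, a gene of the YjeF-domain family, showed the widest gap. It stood at 2.36 and 2.38 in WT replicates 1 and 2 and at 1.97 in Prss54KO replicate 3, but at -2.24 in WT replicate 3 and -2.26 and -2.21 in Prss54KO replicates 1 and 2. The 3 lower arrays were thus 22.2-fold below the 3 higher ones, with nothing measured between them. All 6 arrays were above background at this probe. The difference between genotypes was -1.67 with limma's 95% interval from -5.75 to 2.41, and 2 Prss54KO mice and 1 WT mouse were low.

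Nxnl1, which encodes a thioredoxin-like factor for cone survival, stood at -3.15 and -3.67 in WT replicates 1 and 2 and -2.99 in Prss54KO replicate 3, against -5.75, -6.30 and -5.56 on slide 2. Its signal was above background on 4 arrays. The unnamed transcript TC1772235 read -2.68, -2.82 and -2.72 on slides 3 and 1 and -5.01, -5.04 and -4.77 on slide 2, and Gm10033 read -3.85, -3.42 and -2.83 against -5.23, -5.43 and -6.19. In all of these the mice on slide 2 were low. Background limits their folds: on slide 2, Nxnl1 and Gm10033 were above it on 1 of 3 arrays and TC1772235 on 2 of 3. With the dim arrays raised to the lowest signal well above background, slide 2 was lower by 4.45-fold for Nxnl1, 3.69-fold for Gm10033 and 4.60-fold for TC1772235.

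Among genes with smaller gaps, Mef2b, a MADS-box transcription factor gene, was lower on slide 2 at both of its probes, by 2.01-fold and 1.62-fold. Lrrc25, a leucine-rich repeat gene of myeloid cells, went the other way, at 0.93, 0.97 and 0.90 on slide 2 against 0.08, -0.04 and -0.28. It was the only member higher on slide 2 by a gap of 0.5 or more. The bright probe of Zfp868, a zinc finger gene, stood at 0.14, 0.21 and 0.13 against 0.86, 0.88 and 0.87. C230098O21Rik and 2810428I15Rik were lower on slide 2 by 1.66-fold and 1.81-fold. AK078423 completes the 10 genes. It was above background on only 3 arrays, WT replicates 1 and 2 and 1 Prss54KO array, and no fold is given. As it passed the filter largely through arrays on which it was higher, its gap is no support for the split by slide. These genes were named for their gap and not by the rule for differences between genotypes.

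With a gap of 0.2 in place of 0.5, slide 2 stood apart in 26 members (6.12%; all probes 1.22%), 15 lower and 11 higher, and 23 of them lay before 76 Mb. The higher ones were bright in part: Tmem59l stood at 3.41, 3.46 and 3.36 against 2.98, 2.99 and 2.87, and 2310045N01Rik at 2.76, 2.77 and 2.76 against 2.21, 2.25 and 2.27. Mau2, a cohesin loader gene, Map1s, which encodes a microtubule-associated protein, and Jak3, a cytokine receptor kinase gene, were also higher, by 1.32-fold, 1.24-fold and 1.34-fold. The other tested Mau2 probe went the other way, lower on slide 2 by 1.21-fold. Lower were Cilp2, by 1.56-fold, and Klhl26, by 1.40-fold. Lzts1 was also lower, at -5.73, -6.27 and -6.80 on slide 2 against -5.25, -5.19 and -4.74, at a dim probe above background on 4 arrays. Its difference between genotypes was -0.54 (SE 0.52), and the genotypes overlapped.

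**Figure D4:**
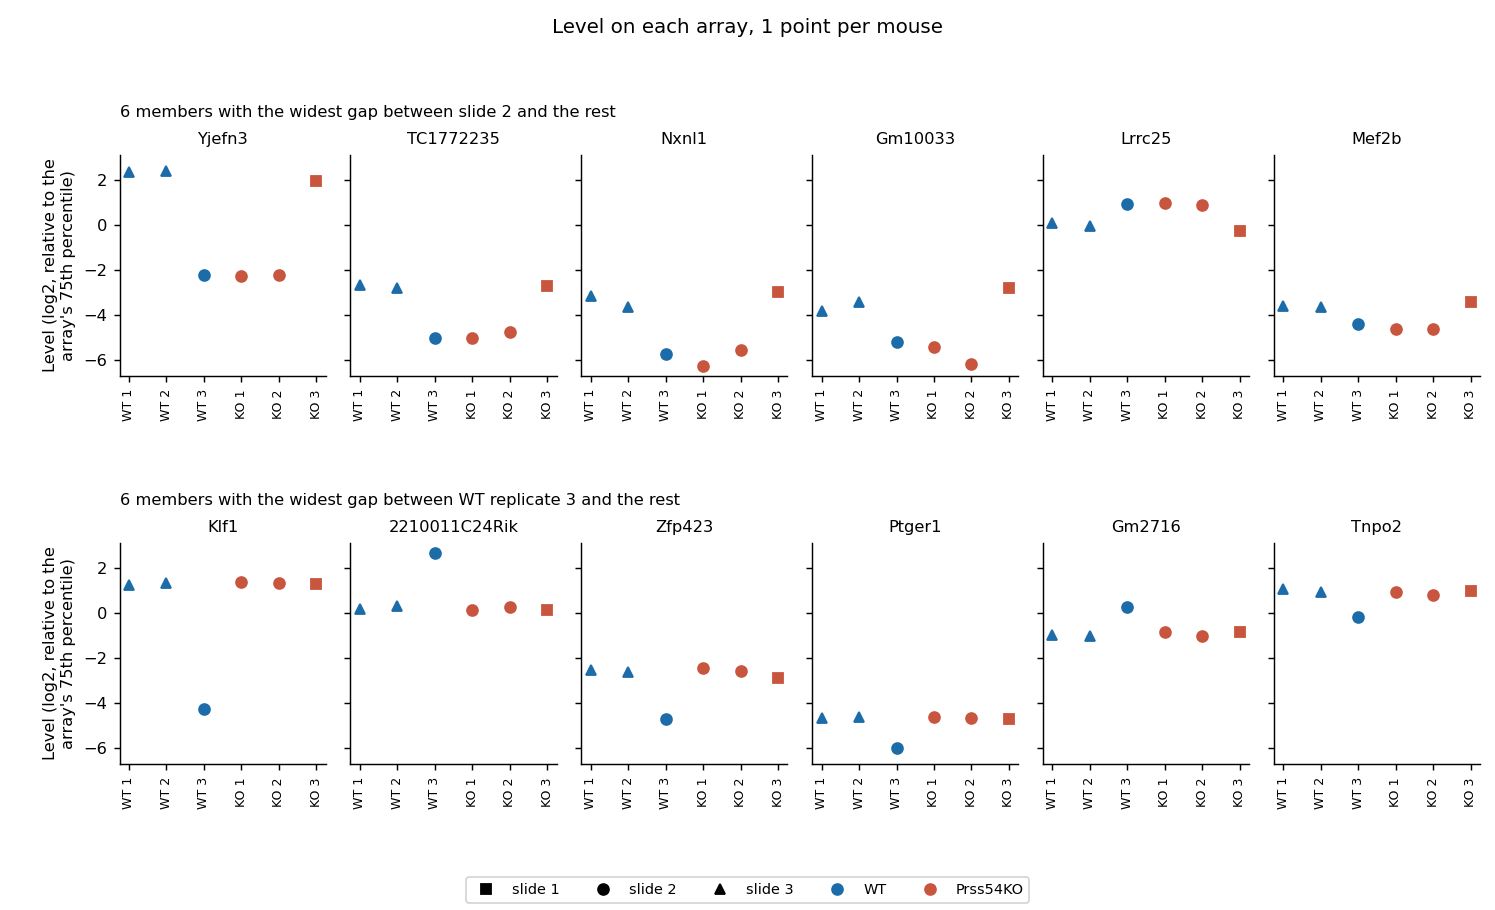
Each panel gives the log2 level of 1 member on the 6 arrays, 1 point per mouse, with colour for genotype and marker shape for slide. In the upper row the circles of slide 2 stand together, as for Yjefn3 at -2.26 to -2.21 against 1.97 to 2.38, and in the lower row WT replicate 3 stands alone, as for Klf1 at -4.27 against 1.24 to 1.39.

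From about 84 Mb onward a different set of arrays stood apart, namely WT replicate 3 alone. Of the 32 members with a gap of 0.5 or more, in 27 genes, 31 lay from 84 Mb on, 19 were lower and 13 higher in that mouse, and the median fold was 1.89. With a gap of 0.2 it was 82 members (19.3%; all probes 3.05%), 38 lower and 44 higher, of which 77 lay from 84 Mb on. The share at that gap was 44.2% of 104 members between 85 and 88 Mb, 36.8% of 38 between 88 and 91 Mb, 34.8% of 23 between 91 and 94 Mb, and 7 of 35 members between 94 and 97 Mb. Beyond the stretch it was 9.8% of 51 probes between 97 and 100 Mb. Between 73 and 79 Mb it was 0 of 104 and 0 of 10.

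**Figure D5:**
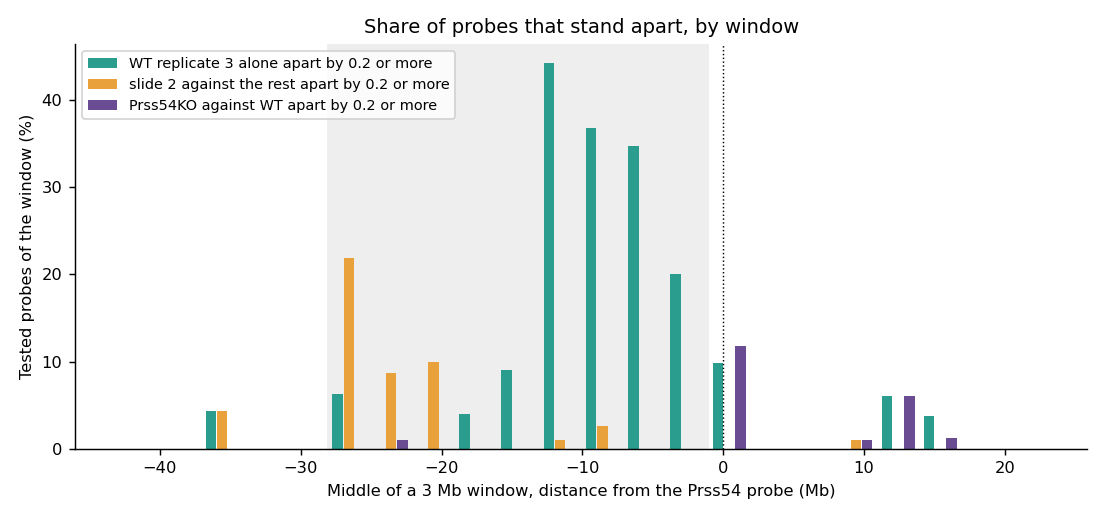
Bars give the percentage of tested probes in each 3 Mb window for which WT replicate 3, slide 2 or the genotypes stood apart by 0.2 or more, against the window's distance from the Prss54 probe in Mb; windows with fewer than 10 tested probes are left out. Slide 2 peaks at 21.9% in the first window of the grey band and WT replicate 3 at 44.2% in its later part, while the genotypes stand apart in 1 member of the stretch.

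Klf1, the erythroid Kruppel-like factor gene, showed the largest gap of all members. It stood at 1.24 and 1.32 in WT replicates 1 and 2, at 1.39, 1.32 and 1.30 in the Prss54KO mice and at -4.27 in WT replicate 3. That mouse was 48.1-fold below the mean of the other 5, at a signal still above background, and the other 5 lay within a narrow range. Klf1 thereby had the largest genotype difference of the stretch, 1.91, which was 0.06 without WT replicate 3. With slide as a fixed block, where only WT replicate 3 is set against Prss54KO replicates 1 and 2, it was 5.63 and the only member called (limma's adjusted p 0.00494).

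The mouse was high in other genes. At 2210011C24Rik (Misp3 in RefSeq) WT replicate 3 read 2.68, and the other arrays read 0.17, 0.32, 0.13, 0.27 and 0.14, a 5.57-fold gap to their mean. Its difference between genotypes was -0.88, and -0.07 without that mouse. Orc6, an origin recognition complex gene, stood at 1.79 against 1.04 to 1.27, and Ddx39, an RNA helicase gene, at 3.55 against 3.08 to 3.16.

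Genes low in the same mouse included Zfp423, a multi-zinc-finger transcription factor gene, at -4.73 against -2.88 to -2.47. Only the printed Zfp423 probe did this; in the gene's other probe, WT replicate 3 differed from the mean of the other 5 by -0.005. Ptger1, the prostaglandin EP1 receptor gene, stood at -5.995 against -4.74 to -4.63, and was above background on 4 arrays, not including WT replicate 3. Tnpo2, a nuclear import receptor gene, was bright, at -0.20 against 0.81 to 1.08. The second Tnpo2 probe was also lower, by -0.54 against the mean of the other 5. Scoc, a coiled-coil protein gene of autophagy, stood at 0.51 against 1.09 to 1.46 at 1 probe, but its other probe differed by 0.04. D8Ertd738e stood at 3.22 against 3.75 to 3.80. Nat3, near the lower end of the stretch, also had WT replicate 3 lowest, by a gap of 0.36. It stood at -4.40, -4.54 and -4.90 in WT and -4.51, -3.76 and -3.52 in Prss54KO. Its genotypes overlapped, and the difference was 0.68 (SE 0.27, limma's unadjusted p 0.044 and adjusted p 0.9998), or 0.54 without WT replicate 3.

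Several genes were read by more than 1 probe. They were taken because at least 1 of their probes stood apart, so the values of their probes are given as a description. Farsa, the alpha subunit gene of phenylalanyl-tRNA synthetase, was low in WT replicate 3 at all 4 of its probes, by -0.42 to -1.32 against the mean of the other 5. Inpp4b, an inositol polyphosphate 4-phosphatase gene, was low at both probes, by -0.87 and -0.88, and Tbc1d9 was high at both, by 0.94 and 1.23. Vps35, a retromer subunit gene, was high at all 3, by 0.40 to 0.72. These genes kept 1 direction across probes.

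Others did not. Rbl2, which encodes the retinoblastoma relative p130, was higher in WT replicate 3 at 1 probe, by 0.59, and lower at the other, by -0.94. Gadd45gip1, a mitochondrial ribosome gene, gave 0.57 at its bright probe; its dim probe, -1.25, was not above background in WT replicate 3. Rfx1 gave 0.57 and -0.64. Nkd1, a Wnt pathway antagonist gene, gave 0.49 and -0.50. Of 33 genes with more than 1 tested probe and at least 1 of them apart by 0.2 or more, all probes were apart in 14 and all had the same sign in 22. For slide 2 the same counts were 10 genes, 1 with all probes apart (Mef2b) and 7 with the same sign. Shares over other genes with more than 1 probe were not worked out. Median GC content of the probes was 45.0% for members apart by slide and 43.3% for those with WT replicate 3 alone at the 0.2 gap. It was 45.0% for members in neither. How well the probes' bases match the transcripts of each mouse was not tested.

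Inpp4b also had the genotypes apart. One probe stood at -3.44, -3.32 and -4.08 in WT and -3.10, -3.02 and -3.17 in Prss54KO, and the other at -3.51, -3.51 and -4.25 against -3.24, -3.24 and -3.34. All 3 Prss54KO mice were above all 3 WT mice at both probes. The differences were 0.52 (SE 0.20) and 0.48, and without WT replicate 3 they were 0.28 and 0.24. Likewise Farsa was higher in Prss54KO by 0.49 at its probe with the largest difference, and by 0.17 without that mouse. None of these passed the adjusted threshold with limma.

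Grouped by function, with lists drawn up when earlier results of these data were known, members showed 0 calls at an adjusted p of 0.05 (limma) in all 10 lists. The list of germ cell and sperm genes had 36 tested probes, 17 above and 19 below 0, with a median difference of -0.01. In it 4933434I20Rik stood at 0.17, and at 0.01 without WT replicate 3. Calr3, a testis chaperone gene, stood at -0.13, and at 0.01 without Prss54KO replicate 3. Ubiquitin and DNA repair genes had 22 of 33 above 0 and a median of 0.02, and only Cyld had an unadjusted p under 0.05. Endoplasmic reticulum and chaperone genes had 15 of 19 above 0, with a median of 0.02 and a range of -0.13 to 0.16; the calreticulin gene Calr gave 0.06 and 0.11, with ranges of 0.03 to 0.09 and 0.05 to 0.16 when single arrays were left out. The median of all probes was 0.01, with 15444 above and 13469 below 0.

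The mitochondrial list had 16 of 27 above 0 with a median of 0.01, and the list of developmental transcription factors 12 of 28 with a median of -0.01. Both lists also held genes of other kinds. The cytosolic tRNA synthetase gene Farsa was in the first, and the ligand gene Gdf1 and the Wnt antagonist gene Nkd1 were in the second. In the developmental list Nr3c2 was higher and Gdf1 lower at limma's unadjusted p under 0.05. The immune and interferon list, which also held the erythroid gene Klf1, had 13 of 19 above 0 and a median of 0.05. Klf1 stood at 1.91, and at 0.06 without WT replicate 3, and Arrdc2 at 0.21 (0.12 without Prss54KO replicate 1). Vascular genes had 3 of 12 above 0 and a median of -0.02; Plvap, an endothelial diaphragm gene, stood at -0.16. Mmp2 stood at -0.15, and at -0.07 without Prss54KO replicate 2, and Lyl1 at -0.15, and at -0.05 without WT replicate 3. Zinc finger genes of the Zfp series had 8 of 17 above 0 and a median of -0.02.

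The smallest lists were the carboxylesterases, with 4 of 5 tested probes above 0 and a median of 0.06, and the metallothioneins, with 4 of 5 above 0 and a median of 0.05. Ces1g was higher in Prss54KO by 0.35 at a dim probe at which WT replicate 3 stood alone and was not above background, and by 0.09 without that mouse. The bright Mt1 probe stood at 6.19, 6.11 and 6.16 in WT and 6.23, 6.19 and 6.18 in Prss54KO, a difference of 0.05. Mt3 differed by 0.14, ranging from 0.06 to 0.18 with single arrays left out. The Mt4 difference of -0.22 turned to 0.27 without WT replicate 1. Probes with WT replicate 3 alone by 0.2 or more were found in 9 of the 10 lists, where all members gave 82 of 425 (19.3%). They were 7 of 28 tested probes in the developmental list and 7 of 27 in the mitochondrial list. All 4 probes of 1 gene, Farsa, were among these last 7, although its product belongs to the cytosolic enzyme. The germ cell list had 6 of 36, the ubiquitin and DNA repair list 6 of 33 and the metallothioneins 0 of 5.

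Against the flanks of chromosome 8, the patterns ended at different places. WT replicate 3 stood alone by 0.5 or more in 2 of 517 tested probes below 70 Mb (0.387%) and in 2 of 267 from 99 to 120 Mb (0.749%). Slide 2 stood apart in 0 of both. In the flank from 99 to 120 Mb, 9.36% of probes had an unadjusted p under 0.05, against 2.35% of the members, and in 40 of 267 the genotypes did not overlap, against 28 of 425. The window from 97 to 100 Mb, which holds Prss54, had the genotypes apart by 0.2 or more in 6 of 51 probes, against 1 of 425 members. For this gap the share over all probes was not worked out.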

How the data were processed

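The deposited scanner files, 1 per mouse, hold spot intensity on a linear scale and, in other columns, marks for background and for outlier spots. Per the file headers they came from Agilent Feature Extraction 10.7.3.1 (10.7 per the submitters' processing notes), with probe positions on mm9. A deposited series-wide table gives log2 values with equal quantiles in all 6 columns (median 7.72); it served as an alternative only, and which software made it was not given in the sources used here.

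From each log2 processed signal the 75th percentile over the gene spots of its array was subtracted. Outlier-marked spots (86 to 142 per array) were left out, 0 spots were saturated, and spots of 1 probe were averaged. Between 66.2% and 74.8% of gene spots were well above background; arrays give no counts, so the number of mice limits the precision. The 28913 probes marked well above background on 3 or more arrays entered 1 two-sided limma fit (version 3.58.1, R 4.3.3; lmFit and eBayes), Prss54KO minus WT, with Benjamini-Hochberg adjustment over all of them. The fit was tested on simulated data. Same-numbered WT and Prss54KO arrays correlated at -0.04, 0.02 and -0.15 in their deviations from the group means. The mice were therefore not treated as paired, although deviations from means of 3 mice cannot exclude a pairing by number.

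The members and lists were chosen with earlier results of these data known. Named were the 20 probes with the largest difference, the 10 with the smallest p, the 10 and 5 with the largest WT and Prss54KO SD, up to 3 per functional list, the other probes of genes named by difference or p, and the probes at the ends; genes named for a gap between arrays, and the gap itself, were chosen after their values were seen. Of 159 list entries, 136 are in the stretch. A fold with "at least" divides the higher genotype's mean by a floor, averaged over the dim genotype's arrays: the lowest signal marked above background on that array, or the probe's own if larger. Gene names come from the array's design; 401 members matched RefSeq (GRCm38.p6, names only) by accession, 71 by symbol or synonym and 77 not. No mm9 annotation was used here. Alternatives covered scaling, normexp background correction, the filter, the deposited table, slide, replicate number, variance model and each array left out. Some items are not reported here.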

Additional observations from a re-analysis of the deposited data

How the results depend on the processing

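The count of 0 members called held in every alternative except slide as a fixed block, where 1 was called; the number at an unadjusted p under 0.05 was 10. That number was 17 with no filter, 85 with slide as a fixed block and 77 on slide 2 alone; leaving out single arrays gave 10 to 36 (36 without WT replicate 3, 19 without Prss54KO replicate 3, 16 without WT replicate 1). Fits on slide 2 alone and with slide as a fixed block set WT replicate 3 against Prss54KO replicates 1 and 2. The 18 members differing by 0.5 or more (4.24%; all probes 1.4%) became 4 with normexp (0.941%; 0.322%), 40 with no filter (7.29%; 6.54%, close to the background), 10 with the filter on all 6 arrays (2.56%; 0.482%), and 59 both with slide as a fixed block and on slide 2 alone (13.9%; 3.36%). They were 41 at a threshold of 0.3 and 2 at 1, where shares over all probes were not worked out. In alternatives added after the data were seen, they were 11 without members from 84 to 97 Mb (4.95% of 222) and 10 without those from 71 to 76 Mb (3.76% of 266). With 1 array left out they ran from 15 (3.53%; all probes 1.95%) to 25 (5.88%; all probes 2.06%). With the replicate block there were 0 calls, 13 members at an unadjusted p under 0.05 (all probes 3.92%) and 18 at 0.5 or more (all probes 1.4%). The median WT SD ran from 0.0592 (without WT replicate 3) to 0.134 with 1 array left out, and the median Prss54KO SD from 0.0593 (without Prss54KO replicate 3) to 0.108. Departures of 0.5 or more, in WT 1, 2, 3 and Prss54KO 1, 2, 3 order, were 58, 73, 124, 101, 51 and 121 with no filter. With normexp they were 17 for WT replicate 2, 47 for WT replicate 3 and 13, 7 and 24 in Prss54KO; with the filter on all 6 arrays, WT replicate 1 had 13 and Prss54KO replicates 1 and 2 had 21 and 11. Members apart by slide were 26 at a gap of 0.2 and 7 with the filter on all 6 arrays, and those with WT replicate 3 alone were 82 at 0.2 and 20 with normexp. Apart from the 0.2 gap, shares over all probes were not worked out for these departures and gaps. Signs reversed for TC1772235 (0.11), Yjefn3 (0.00114) and Sin3b (0.27) with slide as a fixed block and on slide 2 alone, for Gm10033 without Prss54KO replicate 2 (0.03885; range -1.641 to 0.03885) and for Zfp423 without WT replicate 3 (-0.06363; range -0.06363 to 1.029). Dim probes limit these counts: 15 of the 18 large differences lay at a level under -2. Causes other than the arrays and probes each alternative leaves out were not tested.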

Other observations

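Members of 3 genes showed both patterns. Zfp868 lay in the early part: its bright probe split by slide, at 0.14, 0.21 and 0.13 on slide 2 against 0.86 to 0.88 on the other arrays, whereas its dim probe had WT replicate 3 alone, at -5.16 against -4.27 to -3.80. Brd7, a bromodomain gene of chromatin remodelling, stood at -5.96 in WT replicate 3, at -5.35 and -5.19 in Prss54KO replicates 1 and 2, and at -4.82 to -4.74 on the other 3 arrays, so both gaps were present at 1 probe, dim and not above background in WT replicate 3. The other 2 Brd7 probes showed neither. The same order was found at 1 of the 4 Farsa probes, with -2.83 in WT replicate 3, -1.95 and -1.68 in the other mice of slide 2, and -1.39 to -1.22 on the remaining arrays.

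At the smaller gap of 0.2, Prss54KO replicate 3 stood alone in 34 members (8.0%; all probes 6.61%) and Prss54KO replicate 1 in 29 (6.82%; all probes 3.34%). WT replicate 1 stood alone in 10 (2.35%; all probes 2.95%), and WT replicate 2 and Prss54KO replicate 2 in 12 each (2.82%; all probes 2.94% and 3.25%). Of the 29 for Prss54KO replicate 1, 9 lay between 73 and 76 Mb and 8 between 85 and 88 Mb, among 104 tested members in each window.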
